A study of Canis lupus familiaris with 2 samples.

Results

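The cells described here are neurons of the canine neuroretina chosen by markers that include *SLC6A9*, a glycine transporter of the plasma membrane, and *EBF3*, a transcription factor, without transcripts of the enzymes that make GABA. They were chosen from raw UMI counts, where 1 UMI stands for 1 captured transcript molecule, among barcodes with at least 200 detected genes and with no limit on mitochondrial transcripts. A barcode was a member when at least 3 of 7 markers (*IGFBP5*, *EBF3*, *SLC6A9*, *NPPC*, *PENK*, *LAMP5* and *KCNJ6*) had 1 or more UMI, when *GAD1*, *GAD2* and *TRPM1* had 0 UMIs, and when fewer than 3 of the Müller glia genes *RLBP1*, *RGR*, *SFRP2* and *SLC14A1* were detected. This gave 264 members among 13282 barcodes. Dog N350 held 243 members of 8895 barcodes, 2.73% (exact binomial 95% interval 2.4 to 3.09). Dog N354 held 21 of 4387, 0.479% (0.297 to 0.731). The shares depend on depth and on which cells were captured, and cells of 1 dog are not replicates, so they were not compared by a test.

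Amacrine cells are the inhibitory interneurons of the inner retina, and they shape the signal that bipolar cells pass to ganglion cells. One broad group releases GABA, which the enzymes encoded by *GAD1* and *GAD2* make, and another releases glycine, which *SLC6A9* takes up from outside the cell. Either transmitter is loaded into synaptic vesicles by the product of *SLC32A1*, and the AP-2 transcription factors *TFAP2A* and *TFAP2B* are widely used as markers of amacrine cells of both groups.

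Neuroretina punches of 2 normal male dogs, N350 and N354, each 40 weeks old and of the normal (wild-type) genotype, were dissociated and profiled by droplet-based single-cell RNA sequencing, with 1 library for each dog and no treatment. The library of N350 held 24030707 UMIs in 8900 barcodes and that of N354 held 9711202 UMIs in 4392 barcodes. Their gene annotations differed: N350 listed 34981 genes and N354 listed 19947, with 15224 names in both, so dog and annotation cannot be told apart for any gene. The libraries shared 6 barcodes, and no member of either dog was among them. Members held a median of 3592 UMIs in N350 and 2834 in N354, against 1298 and 1204 over all barcodes. All members together gave 1087068 UMIs in N350 but 68871 in N354, so a gene at 0 in the members of N354 was below 3 UMIs in that total and not shown to be absent. Levels are given as UMIs per 10000 UMIs of a class in 1 dog. They are not corrected for transcript length and are compared between cells, never between genes. Where a gene is said to lead a marker list or to hold the most UMIs in it, that is a count of UMIs and not a level. Intervals and limits cover counting error only.

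The 7 markers chose the members, so their values are a description and carry no test. *SLC6A9* stood at 3.85 UMIs per 10000 in the members of N350 (exact Poisson 95% interval 3.49 to 4.23) and at 4.5 in those of N354 (3.06 to 6.39). In GABAergic amacrine cells, gated by 2 or more UMIs of *GAD1* and *GAD2*, it stood at 0.0497 and 0.0381, and in rods, which should lack it, at 0.245 and 0.133. At least 1 UMI of *SLC6A9* was found in 2.92% of rods of N350 and 1.5% of rods of N354, at median depths of 1056 and 1017 UMIs. With every cell thinned to 1000 UMIs, the shares were 28.2% and 32.3% of members against 2.18% and 1.24% of rods.

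*IGFBP5*, a binding protein of insulin-like growth factors, stood at 15 UMIs per 10000 in the members of N350 and 13.4 in those of N354, and was detected in 160 of 243 and 16 of 21 members. *NPPC*, the precursor of C-type natriuretic peptide, stood at 7.9 and 4.36. *LAMP5*, a membrane protein of some inhibitory neurons, stood at 10.4 and 2.47, and *EBF3* at 3.36 and 0.726. *PENK*, the enkephalin precursor, stood at 2.14 and 0.436, and *KCNJ6*, a potassium channel opened by G proteins, at 3.88 and 1.89. No marker was in every member. *SLC6A9* was detected in 148 of 243 members of N350 and 15 of 21 of N354, and *EBF3* in 144 and 5, so a member could lack either. Both were detected together in 73 of the 243 and 3 of the 21, so most members did not show the 2 genes jointly. The most frequent in N350 was *KCNJ6*, in 188 of 243, and the least frequent was *PENK*, in 93. Some markers were found in other classes too, where *KCNJ6* stood at 1.92 UMIs per 10000 in horizontal cells and 1.57 in GABAergic amacrine cells of N350, and *NPPC* at 1.99 in its Müller glia.

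Of the 288 barcodes of N350 with 3 or more markers, 28 were removed by the Müller glia genes alone, 10 by *TRPM1* alone and 5 by *GAD1* or *GAD2* alone. In N354, 23 barcodes had 3 or more markers, and 1 was removed by the Müller glia genes alone and 1 by *TRPM1* alone. Just inside the threshold, with exactly 3 markers, were 82 barcodes of N350, in which *IGFBP5* stood at 5.02 and *SLC6A9* at 4.08 UMIs per 10000. Just outside, with 2 markers, were 97, in which they stood at 1.57 and 1.54. In N354, the 14 barcodes with 3 markers had *IGFBP5* at 7.31 and *SLC6A9* at 4.6, and the 24 with 2 markers had 5.75 and 4.11. In N354, *KCNJ6* stood at 1.46 inside and 0.274 outside, *NPPC* at 3.34 and 1.23 and *LAMP5* at 3.55 and 3.84. The number of markers detected differs by construction. Of genes outside the rule, *TFAP2B* stood at 1.04 inside and 1.78 outside in N354 and at 2.75 and 1.29 in N350, and *EBF1* at 0.836 and 0.685 in N354 and 1.09 and 0.99 in N350.

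**Figure D1:**
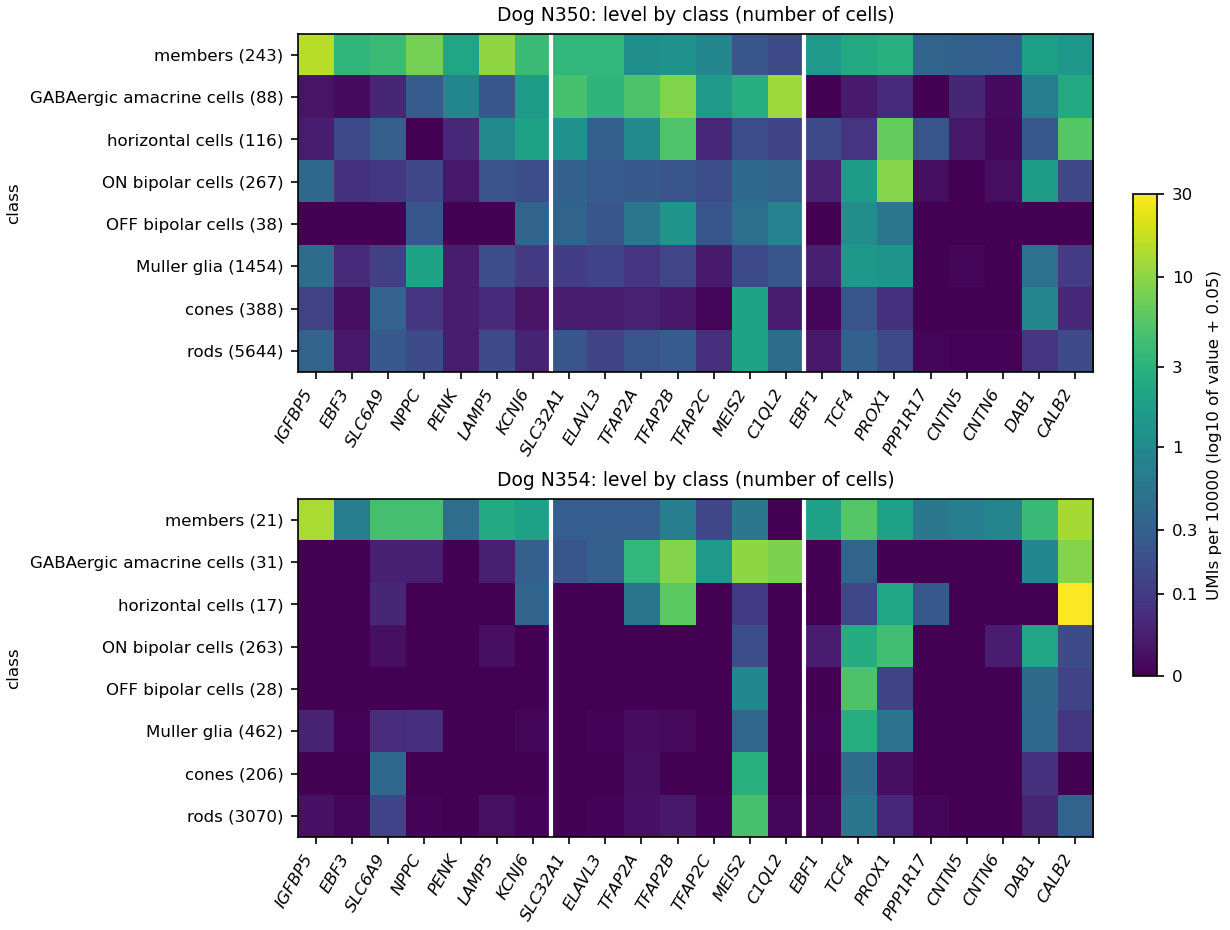
Level of the marker genes of the rule, of shared amacrine genes and of other genes (columns) in each gated class (rows) of dogs N350 and N354, as UMIs per 10000 on a log colour scale of the value plus 0.05, with the number of cells in parentheses. *SLC6A9* stands at 3.85 and 4.5 in the members and at 0.0497 and 0.0381 in GABAergic amacrine cells.

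To see where these cells lie when the 14 genes of the rule are set aside, all barcodes of each dog were grouped into Leiden clusters without those genes. In N350, 233 of 243 members (95.9%) fell into 2 of 21 clusters, 149 in one of 188 cells and 84 in another of 150 cells. At a lower resolution 229 members shared a single cluster. In N354, 17 of 21 members fell into one of 15 clusters, a cluster of 38 cells that held no cell of another gated class, and the other 4 fell into a cluster of 79 cells that also held 27 of the GABAergic amacrine cells. Of the 105 other cells in the 2 clusters of N350, 65 met no gate, at a median of 2904 UMIs over all 105. The first cluster of N350 was led, beside genes of the rule, by *TSTD3*, *ATP1B1* and *CPNE4*, and the second by *NSG1*, *PPP1R1A* and *CDH7*. In N354 the cluster with 17 members was led, beside *IGFBP5*, by *ATP1B1*, *SPHKAP* and *CALY*. These leading genes come from the same cells that were clustered and are not a test.

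Transcripts of other cell types were counted in the members as whole marker lists, because several gates were met at once. In N350, 73 of 243 members (30%) also met the gate for rods, 5 that for horizontal cells, 3 that for cones, 1 that for OFF bipolar cells and 1 that for ganglion-like neurons. In N354, 1 of 21 members met the gate for rods and none met another. The 11 rod genes summed to 31.4 UMIs per 10000 in the members of N350 and 13.1 in those of N354, where *GNGT1* held the most UMIs, against 565 and 708 in rods and 10.6 and 16.2 in GABAergic amacrine cells. No defining rod gene was at 0 in the members. The Müller glia list, part of which the rule used, summed to 11.9 and 6.68, against 795 and 957 in Müller glia, and in N354 *RLBP1*, *RGR*, *SLC14A1*, *KCNJ10* and *CLU* were at 0. Microglia genes summed to 0.0644 and 0, with *C1QA*, *AIF1* and *CX3CR1* at 0 in both dogs. Vascular genes summed to 0.957 and 0.145, led by *CLDN5* and *PDGFRB*, with *PECAM1* and *CDH5* at 0 in both. Astrocyte genes summed to 2.35 and 0, led by *SERPINE2* in N350, with *PAX2* at 0. Pigment epithelium genes summed to 0.0276 and 0, with *RPE65* and *BEST1* at 0. Cone genes summed to 1.78 and 1.16 with *PDE6C* at 0, and bipolar genes to 8.85 and 6.1, led by *GNAO1*, with *TRPM1* at 0 by the rule and *VSX1* at 0. Horizontal cell genes summed to 7.72 and 13.4, of which *CALB1* held the most UMIs.

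One member of N350 stood apart, with 71529 UMIs, 6.58% of the UMIs of all members of that dog, where the next deepest held 15432. It lay in a cluster with 11 of the ganglion-like neurons and held 394 of the 505 UMIs of *NEFL*, 512 of the 557 of *NEFM*, 202 of the 203 of *SNCG*, 306 of the 314 of *CARTPT* and all 15 of *SLC17A6*. The ganglion cell list summed to 20.5 UMIs per 10000 in the members of N350, to 5.04 without that cell, and to 2.9 in N354. Members were therefore also tested without barcodes that met the ganglion-like or horizontal gate, and again without those that met the rod gate. Of the 4% of barcodes with the highest doublet scores, 16 were members of N350 (6.58% of its members) and none were members of N354. Mitochondrial transcripts made up a median of 5.99% and 7.83% of the UMIs of members.

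**Figure D2:**
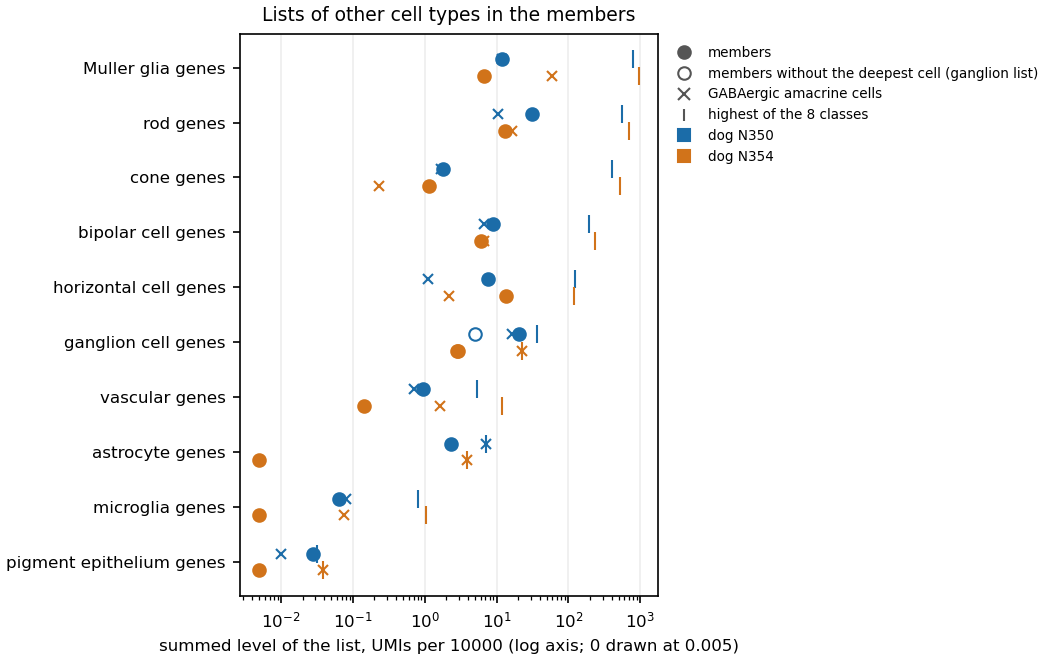
Summed level of each list of markers of another cell type, in UMIs per 10000 on a log axis, in the members (filled circles), in the members without the deepest cell for the ganglion list (open circle), in GABAergic amacrine cells (crosses) and in the class with the highest sum (bars), for each dog. The rod list sums to 31.4 and 13.1 in the members against 565 and 708 in rods.

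To ask whether these cells are amacrine and how they differ from the GABAergic amacrine cells, UMIs were summed by dog and class and fitted with edgeR's quasi-likelihood test, with dog as a block, and p-values were adjusted by Benjamini-Hochberg. The fit used 8 classes with at least 10 cells in each dog. GABAergic amacrine cells numbered 88 in N350 and 31 in N354, at median depths of 10256 and 8240 UMIs. Genes of the gates of the members, Müller glia, horizontal cells and GABAergic amacrine cells were left out of the tests against GABAergic amacrine cells, and genes of every gate were left out of those against the mean of the other classes, given next. Other genes that vary with the rule's genes from cell to cell can still differ because the cells were chosen with those genes, and that part cannot be told apart here. Of 10064 genes tested, 293 were higher in the members than in GABAergic amacrine cells (2.91%) and 309 were lower (3.07%). Of these 602, 570 lay on the same side in both dogs. The calls were made from the same dogs, so that count is not a separate test. The median log2 difference over all tested genes was -0.01. DESeq2 called 140 higher and 151 lower, and the fit without the dog as a block called 0 of either, with 524 genes at an unadjusted p under 0.05. Members were also compared with the unweighted mean of the 7 other classes. Of 10045 genes tested, 1169 were higher (11.6%) and 532 were lower (5.3%), with a median of 0.03 over all tested. The fit without the block called 233 and 44, and DESeq2 called 859 and 345.

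**Figure D3:**
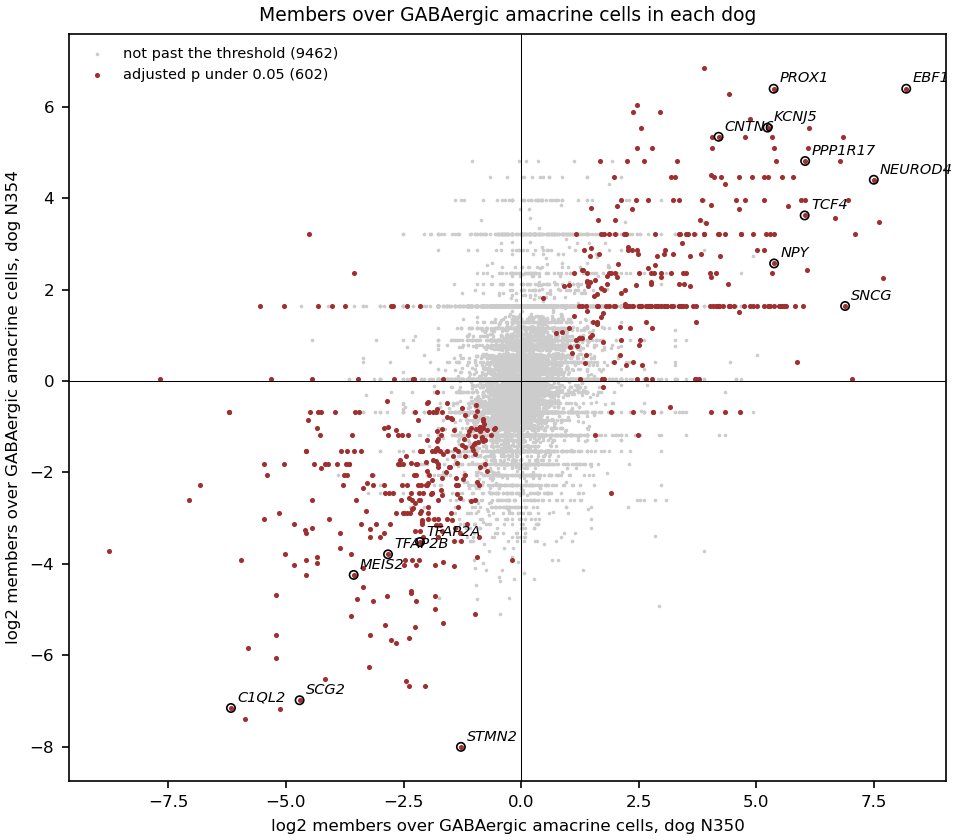
Log2 level of each tested gene in the members over GABAergic amacrine cells, in dog N350 (horizontal axis) and dog N354 (vertical axis), with the 602 genes past an adjusted p of 0.05 in red and the other genes in grey. Of the genes in red, 570 lie on the same side of 0 in both dogs, the same dogs from which they were called.

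Genes shared by amacrine cells were present in the members at mixed levels. The vesicular transporter *SLC32A1* stood at 3.44 UMIs per 10000 in the members of N350 and 4.6 in its GABAergic amacrine cells, and at 0.29 (2 UMIs) and 0.229 (6 UMIs) in N354. In Müller glia, bipolar cells, cones and rods of N350 it stood between 0.0332 and 0.342, and in horizontal cells at 1.24, while in N354 those classes held 0 UMIs. It was higher in the members than in the mean of the other classes, by 3.17 on the log2 scale (SE 0.28, edgeR adjusted p = 8.6e-08), and its difference from GABAergic amacrine cells was -0.54 (adjusted p = 0.539). *ELAVL3*, an RNA-binding protein of neurons, stood at 3.38 and 0.29 in the members against 3.19 and 0.305 in GABAergic amacrine cells. Its log2 difference was -0.10 there (adjusted p = 0.996) and 3.66 over the mean of the other classes (SE 0.25, adjusted p = 3.61e-09).

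The AP-2 factors *TFAP2A* and *TFAP2B* were lower than in GABAergic amacrine cells, and *TFAP2C* did not pass (log2 -1.66, edgeR adjusted p = 0.132). *TFAP2A* stood at 1.17 and 0.29 UMIs per 10000 in the members of N350 and N354 and at 4.94 and 3.39 in GABAergic amacrine cells, a log2 difference of -2.73 (SE 0.49, adjusted p = 0.00136). *TFAP2B* stood at 1.3 and 0.726 against 8.77 and 9, a difference of -3.42 (SE 0.64, adjusted p = 0.002). Of its UMIs in the members of N350, 114 lay in the 82 cells with exactly 3 markers (2.75 per 10000) and 27 in the 161 with 4 or more (0.402), and in N354 all 5 lay in the 14 cells with exactly 3. Over the mean of the other classes, *TFAP2A* was higher by 1.57 (SE 0.40, adjusted p = 0.0087), and *TFAP2B* was at 1.14 and did not pass (adjusted p = 0.179). With only the members that had *IGFBP5* and not *LAMP5* (141 of 243 and 16 of 21), the value of *TFAP2A* over that mean was -2.23 and did not pass (adjusted p = 0.142). *TFAP2C* was at 3.09 over the mean (SE 0.52, adjusted p = 0.000169), with 1 UMI in the members of N354. *MEIS2*, a homeobox factor, was lower than in GABAergic amacrine cells by -4.03 (SE 0.48, adjusted p = 2.89e-05), at 0.23 and 0.581 against 2.62 and 10.1, and was also below the mean of the other classes (-1.67, adjusted p = 0.0119). *C1QL2*, a secreted synaptic protein, stood at 0.166 and 0 against 11.6 and 8.43.

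Of the 10 shared amacrine markers, 9 were in both annotations and tested. Against GABAergic amacrine cells 0 were higher and 5 were lower, with a median log2 difference of -2.01 beside -0.01 over all tested genes, of which 2.91% were higher and 3.07% lower. Against the mean of the other classes 6 were higher and 1 was lower, with a median of 1.63 beside 0.03 over all tested genes, of which 11.6% were higher and 5.3% lower. Of those 6, *TFAP2A* and *ELAVL4* had values of -2.23 and -2.15 that did not pass (adjusted p = 0.142 and 0.268) with only the members that had *IGFBP5* and not *LAMP5*. The medians were also taken with each sum of a gene in a class of a dog that was under 3 UMIs set to 3. They were then -1.50 and 1.87, beside 0.35 and 0.23 over all tested genes. The tenth, *PAX6*, was named in the annotation of N350 only. The data met the amacrine label in part, so the cells are called here by the genes of the rule. Of the 9, *SLC32A1*, *ELAVL3*, *TFAP2C* and *NRXN2* were higher than the mean of the other classes and did not pass against GABAergic amacrine cells, *TFAP2A* and *ELAVL4* lay above that mean and below GABAergic amacrine cells, and *MEIS2* was below both. *TFAP2B* and *C1QL2* were lower than in GABAergic amacrine cells and did not pass against the mean. *SLC32A1* and *ELAVL3* held 2 UMIs each in the members of N354.

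Several genes known from glycinergic amacrine cells were higher than in GABAergic amacrine cells, *TCF4*, *PROX1* and *EBF1* among them in both dogs. The glycine transporter of spinal and brainstem neurons, *SLC6A5*, had 0 UMIs in every class of both dogs, so *SLC6A9*, which the rule used, is the only plasma-membrane glycine transporter seen of these 2. *TCF4*, a basic helix-loop-helix factor, stood at 2.4 UMIs per 10000 in the members of N350 and 5.37 in those of N354, against 0.0298 and 0.343 in GABAergic amacrine cells (log2 4.79, SE 0.41, adjusted p = 6.14e-07). It was also found in Müller glia, at 1.46 and 2.67, and in ON bipolar cells, at 1.68 and 2.58. *PROX1*, a homeobox factor found in AII amacrine, horizontal and bipolar cells, stood at 2.81 and 1.89 against 0.0596 and 0 (log2 5.72, SE 0.43, adjusted p = 1.48e-07). Horizontal cells held more of it, 6.58 and 2.14, as did ON bipolar cells, 9.4 and 4.14.

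*EBF1*, a factor of the same family as the rule's *EBF3*, stood at 1.53 and 1.89 UMIs per 10000, with 0 UMIs in GABAergic amacrine cells of either dog. Against 3 UMIs, the level in the members was at least 51.2-fold higher in N350 and at least 16.5-fold higher in N354 (adjusted p = 3.05e-05). In rods it stood at 0.0253 and 0.00531. *PPP1R17*, a phosphatase inhibitor, was at least 11.4-fold and at least 5.08-fold higher (adjusted p = 0.00118). The adhesion molecules *CNTN5* and *CNTN6* were higher by 3.24 (SE 0.91, adjusted p = 0.0417) and 5.37 (SE 1.05, adjusted p = 0.00397), and *CNTN6* held 31 UMIs in the members of N350 and 6 in those of N354 against 1 and 0. *NFIB* and *NFIX*, nuclear factor I genes, also passed, with levels in N350 of 2.14 and 0.681 against 0.0298 and 0, but their calls rest on N350, since the members of N354 held 1 UMI of *NFIB* and 0 of *NFIX*. *CALB2*, calretinin, stood at 1.48 and 12.5 against 2.36 and 9.19 (log2 -0.29, adjusted p = 0.885). *DAB1*, an adaptor protein of AII amacrine cells, stood at 1.79 and 3.63 against 0.725 and 0.915 (1.37, adjusted p = 0.207).

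Of the 20 glycinergic amacrine genes, 15 passed the filter on low counts. The list shares *LHX9* and *ISL1* with the GABAergic amacrine genes and *SLC32A1* with the shared amacrine markers. The counts of these lists are therefore not independent. Against GABAergic amacrine cells 8 were higher and 1 (*LHX9*) was lower, with a median log2 difference of 3.69 (2.48 with sums under 3 UMIs set to 3), beside -0.01 (0.35) over all tested genes, of which 2.91% were higher and 3.07% lower. Against the mean of the other classes 12 were higher and 0 were lower, with a median of 3.12 (2.37) beside 0.03 (0.23) over all tested genes, of which 11.6% were higher and 5.3% lower. *CALB2*, one of the 12, was at -8.50 (adjusted p = 0.132) with only the members that had *IGFBP5* and not *LAMP5*. Among genes of the list called in neither comparison, *EBF2* held 11 UMIs in the members of N350 (0.101 per 10000) and 0 in those of N354. GABAergic amacrine cells held 0 UMIs of it. *NEUROD6*, known from amacrine cells that lack both transmitters, held 2 UMIs in N350 and 0 in N354. *ISL1*, a homeobox factor of cholinergic amacrine, ganglion and ON bipolar cells, held 1 UMI and 0.

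Several genes known from GABAergic amacrine cells were lower. *TBX3*, a T-box factor, stood at 0.837 and 0.436 UMIs per 10000 in the members of N350 and N354 and at 2.71 and 1.53 in GABAergic amacrine cells (-2.08, adjusted p = 0.0155). Of the 14 GABAergic amacrine genes, 7 were tested, of which 0 were higher and 5 were lower. The 5 include *LHX9*, which the glycinergic list also holds. The median of the 7 was -2.54 beside -0.01 over all tested genes (-2.19 beside 0.35 with sums under 3 UMIs set to 3). Of all tested genes, 2.91% were higher and 3.07% lower. Against the mean of the other classes 3 were higher (*ABAT*, *TBX3* and *CARTPT*) and 0 were lower, with a median of 1.23 beside 0.03 (0.38 beside 0.23 with sums under 3 UMIs set to 3), where 11.6% of all tested genes were higher and 5.3% lower. The call of *CARTPT* rested on 1 cell, as given below, and with only the members that had *IGFBP5* and not *LAMP5* the value of *TBX3* was -0.65 (adjusted p = 0.747). The absence of *GAD1* and *GAD2* from the members was part of the rule, and these genes were measured on the same contrast. The cholinergic genes *CHAT*, *SLC18A3* and *SLC5A7* were at 0 in the members of both dogs.

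Among 16 neuropeptide genes tested, 2 were higher and 6 were lower than in GABAergic amacrine cells, with a median log2 difference of -0.85 beside -0.01 over all tested genes (-0.89 beside 0.35 with sums under 3 UMIs set to 3). Of all tested genes, 2.91% were higher and 3.07% lower. Against the mean of the other classes, where 11.6% of all tested genes were higher and 5.3% lower, 8 of the 16 were higher and 2 were lower (median 1.28 beside 0.03, or 0.79 beside 0.23 with sums under 3 UMIs set to 3). The call of *CARTPT*, one of the 8, rested on 1 cell, as given below. *SCG2*, secretogranin 2, stood at 0.892 and 0.145 against 22.2 and 22.5 (-4.76, SE 0.49, adjusted p = 7.92e-06). *NPY*, neuropeptide Y, was one of those that were higher, at 2.4 and 1.45 UMIs per 10000 against 0.0497 and 0.191 (log2 4.55, SE 0.86, adjusted p = 0.00252). In horizontal cells of N350 *NPY* stood at 0.967 and in rods at 0.101. *PCSK2*, a protease that cuts peptide precursors, stood at 0.819 and 1.74 against 0.109 and 0.267 (2.62, SE 0.54, adjusted p = 0.00432). Among 11 tested genes of peptide receptors, insulin-like growth factor signaling and glycine breakdown, 2 were higher and 0 were lower (median 1.39, or 0.93 with sums under 3 UMIs set to 3): *NPR3*, the clearance receptor for natriuretic peptides, which held 10 UMIs in N350 and 1 in N354 against 0 in GABAergic amacrine cells, and *IGFBP4*, which held 147 UMIs in N350 and 0 in N354.

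Transcription factors of inner retinal neurons passed in both directions, with 10 of 27 tested higher and 7 lower than in GABAergic amacrine cells, where 2.91% of all tested genes were higher and 3.07% lower. Their median log2 difference was 0.16 beside -0.01 over all tested genes, and 0.86 beside 0.35 with sums under 3 UMIs set to 3. *NEUROD4*, a helix-loop-helix factor of bipolar and amacrine development, stood at 0.948 UMIs per 10000 in N350 and 4.36 in N354 against 0 and 0.153 (log2 5.44, SE 0.85, adjusted p = 0.000379). The bipolar classes held 3.47 to 5.38 of it, and rods 0.0492 and 0.0159. *BARHL2*, a homeobox factor of amacrine and horizontal cells, stood at 1.4 and 2.47 in the members, 1.27 and 1.41 in GABAergic amacrine cells and 1.75 and 2.68 in horizontal cells. It was higher than the mean of the other classes by 4.71 (SE 0.54, adjusted p = 2.58e-06), and its difference from GABAergic amacrine cells, 0.16, did not pass. *SIX3* and *TSHZ2* passed as higher in both comparisons, at 4.58 and 1.26 UMIs per 10000 in the members of N350, but both were at 0 in those of N354.

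The genes of transmitter release were tested in the same way. Of 20 genes of conventional synapses tested, 0 were higher and 2 were lower than in GABAergic amacrine cells (median -0.54 beside -0.01 over all tested genes, of which 2.91% were higher and 3.07% lower), and 9 were higher and 2 were lower than the mean of the other classes (median 0.91 beside 0.03, with 11.6% of all tested genes higher and 5.3% lower). With sums under 3 UMIs set to 3 these medians were -0.32 and 1.02, beside 0.35 and 0.23. *SYT1*, the calcium sensor of vesicle release, stood at 20 and 32.8 UMIs per 10000, against 29 and 45.9 in GABAergic amacrine cells and 9.1 and 11.8 in rods (0.81 over the mean of the other classes, adjusted p = 0.000724). Of 8 tested genes of the ribbon synapse, by which photoreceptors and bipolar cells release glutamate, 0 were higher and 5 were lower than the mean of the other classes (median -1.34, or -1.23 with sums under 3 UMIs set to 3). Against GABAergic amacrine cells 0 of the 8 were higher and 1 (*CPLX3*) was lower (median 0.57, or 0.38 with sums under 3 UMIs set to 3).

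Transmitter receptors were next. Of 17 glutamate receptor genes tested against the mean of the other classes, 11 were higher and 0 were lower (median log2 1.95 beside 0.03 over all tested genes, of which 11.6% were higher and 5.3% lower). *GRIA2*, an AMPA receptor subunit, stood at 3.89 and 1.74 UMIs per 10000 in the members of N350 and N354, against 0.163 and 0.0159 in rods (log2 2.75, SE 0.32, adjusted p = 2.6e-06), and *GRM8*, a metabotropic receptor, was higher by 3.96 (SE 0.47, adjusted p = 2.85e-06). Of 12 GABA receptor genes, 8 were higher and 2 were lower (median 1.94). Of 5 glycine receptor genes, 4 were higher (median 1.16), among them the subunit gene *GLRA3*, at 0.902 and 0.581 against 0.219 and 0 in GABAergic amacrine cells (5.23 over the mean of the other classes, SE 0.66, adjusted p = 1.22e-05). Against GABAergic amacrine cells, 0 of 18 glutamate, 0 of 12 GABA and 0 of 5 glycine receptor genes were higher, and 5, 3 and 0 were lower (medians -0.45, -1.39 and -0.33 beside -0.01 over all tested genes, of which 2.91% were higher and 3.07% lower). With sums under 3 UMIs set to 3, these medians were -0.05, -0.54 and 0.60 beside 0.35. Those over the mean of the other classes were 1.65, 1.55 and 1.21 beside 0.23.

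Of 16 tested genes of potassium and sodium channels, 3 were higher and 2 were lower than in GABAergic amacrine cells (median log2 0.42 beside -0.01 over all tested genes, of which 2.91% were higher and 3.07% lower). *KCNJ5*, a channel subunit of the same family as the rule's *KCNJ6*, stood at 0.193 and 1.02 UMIs per 10000 (21 and 7 UMIs), with 0 UMIs in GABAergic amacrine cells, so that it was at least 6.48-fold and at least 8.88-fold higher (adjusted p = 0.00383). Over all other barcodes it stood at 0.000874 and 0.00312. *KCND3*, a channel of the transient potassium current, was higher by 2.73 (adjusted p = 0.0364) and *KCNIP4*, a partner of such channels, by 2.16 (adjusted p = 0.0208), while *KCNC2*, a channel of fast-firing neurons, was lower (-2.24, adjusted p = 0.00344). Of 37 adhesion and guidance genes, 4 were higher and 4 were lower than in GABAergic amacrine cells (median -0.41), and 22 were higher and 1 was lower than the mean of the other classes (median 2.16 beside 0.03 over all tested genes, of which 11.6% were higher). Of the 5 calcium-binding genes tested, 5 were higher than the mean of the other classes (median 3.04). Against GABAergic amacrine cells 0 were higher and 1 (*NECAB1*) was lower (median 0.80, or 1.16 with sums under 3 UMIs set to 3). *CALB2*, one of the 5, was at -8.50 over that mean (adjusted p = 0.132) with only the members that had *IGFBP5* and not *LAMP5*. With sums under 3 UMIs set to 3, the medians against GABAergic amacrine cells were 0.63 for the channels and 0.03 for adhesion and guidance, beside 0.35. Those over the mean of the other classes were 1.37 for adhesion and guidance and 2.74 for calcium binding, beside 0.23. *CALB1*, calbindin, stood at 3.7 and 10.9, against 62.8 and 71.4 in horizontal cells and 0.109 and 1.33 in GABAergic amacrine cells.

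Apart from the lists, genes were named by the size of their difference. Those highest over GABAergic amacrine cells each had 0 UMIs in GABAergic amacrine cells of both dogs. *NPSR1*, the receptor of neuropeptide S, held 65 UMIs in the members of N350 and 6 in those of N354 and was at least 20.1-fold and at least 7.61-fold higher (adjusted p = 0.00129). *FGF7*, a fibroblast growth factor, was at least 12-fold and 6.34-fold higher, and *KLB*, a coreceptor of other fibroblast growth factors, at least 7.1-fold and 6.34-fold. *SLC16A11*, of the monocarboxylate transporter family, was at least 19.1-fold and 5.08-fold higher. *HTRA3*, *CTHRC1*, *PRLHR* and *SIDT1* were at least 23.8-fold, 21.6-fold, 11.4-fold and 10.8-fold higher in N350, but held 1 or 2 UMIs in N354, and *PMFBP1* (at least 11.1-fold in N350) held 0, so that N354 set no limit.

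Those lowest against GABAergic amacrine cells had 0 UMIs in the members of both dogs. *GSG1L*, an auxiliary subunit of AMPA receptors, stood at 1.9 and 0.763 UMIs per 10000 in GABAergic amacrine cells and was at least 68.8-fold and at least 1.75-fold lower in the members. *GRM5* and *SORCS3* were at least 11.5-fold lower in N350, *CHRNB3*, a nicotinic receptor subunit, at least 6.84-fold, *TFAP2D*, an AP-2 factor, at least 6.48-fold and *ARHGAP28* at least 5.4-fold. For these 5 genes the depth of N354 set no limit. *TOX2* was at least 4.32-fold and 1.14-fold lower.

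Several genes that were highest over the mean of the other classes were rare in all other barcodes. *CPNE4*, a calcium-dependent membrane-binding protein, stood at 1.78 and 2.61 UMIs per 10000 in the members against 0.0258 and 0.00936 in all other barcodes (log2 8.04 over the mean of the other classes, SE 0.52, adjusted p = 4.95e-09). *PLSCR5*, of the scramblase family, stood at 1.09 and 1.02 against 0.0175 and 0.00416 (adjusted p = 2.91e-08). *F5*, coagulation factor V, stood at 0.331 and 1.74 against 0.0048 and 0.00104 (adjusted p = 1.06e-06), and *NPSR1* at 0.598 and 0.871 against 0.00612 and 0.00728 (adjusted p = 6.33e-07). *HEMGN*, *LIX1*, *CHODL*, *LRRC7*, *CD55* and *PRLHR* were likewise higher, at 0.212 to 0.451 UMIs per 10000 in N350 and 0.29 to 1.31 in N354. The lowest were genes with 0 UMIs in the members of both dogs: *SAMSN1*, at 7.3 and 6.73 in OFF bipolar cells, *GABRR2*, a GABA receptor subunit at 2.21 and 7.65 in ON bipolar cells, *SLC24A4*, *ARHGAP28*, *SLC44A5*, *RYR3*, *TPH1* and *CASKIN2*.

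Some calls for single genes rested on 1 cell or 1 dog. *SNCG*, a synuclein of ganglion cells, was called higher than in GABAergic amacrine cells (log2 7.32, adjusted p = 0.00048), but without members that met the ganglion-like or horizontal gate its value was -0.05 (adjusted p = 1). *CARTPT* was called higher than the mean of the other classes (2.29, adjusted p = 3.96e-05), and without those members it was lower (-2.77, adjusted p = 0.00286). The immediate early genes *IER2* and *DUSP1* were called higher in both comparisons, at 3.68 and 3.39 UMIs per 10000 in the members of N350, but were at 0 in those of N354. *FOS*, which is induced in dissociated cells, led the list of immediate early genes in N350, where the list summed to 57.7 UMIs per 10000, against 11.8 in N354, and its part in other differences was not tested. Without the members that met the rod gate, 254 genes were higher and 298 lower than in GABAergic amacrine cells.

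The members differed among themselves in *IGFBP5* and *LAMP5*. In N350, 141 members (58%) had *IGFBP5* without *LAMP5*, 76 (31.3%) had *LAMP5* without *IGFBP5*, 19 had both and 7 had neither. In N354 the numbers were 16, 4, 0 and 1. Of the 149 members in the larger of the clusters of N350 made without the rule's genes, 134 were of the *IGFBP5* side and 3 of the *LAMP5* side, and of the 84 in the other, 0 and 72. At a Leiden resolution of 0.5, 1 cluster held 131 of the *IGFBP5* side and 74 of the *LAMP5* side together. In N354 all 16 of the *IGFBP5* side lay in one cluster and all 4 of the *LAMP5* side in the cluster that held GABAergic amacrine cells. The *IGFBP5* and *LAMP5* sides had median depths of 3268 and 5382 UMIs in N350 and 2823 and 5456.5 in N354. Mitochondrial transcripts made up a median of 5.01% and 8.28% of their UMIs in N350 and 6.63% and 15.5% in N354, and the part of depth and of this share in the values that follow was not tested. The following values are a description with no test, since the sides were cut on genes of the rule and the genes named were chosen after their values were seen.

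On the *IGFBP5* side the AP-2 factors *TFAP2A* and *TFAP2B* were below the level of rods in N350. *TFAP2A* stood at 0.0857 UMIs per 10000 in N350 and *TFAP2B* at 0.107, where rods of that dog stood at 0.212 and 0.263, and both were at 0 in N354. On the *LAMP5* side they stood at 2.13 and 2.73 in N350 and at 0.957 and 2.39 in N354. *CALB2* had 0 UMIs on the *IGFBP5* side of both dogs and 135 and 86 on the *LAMP5* side, which held all of it in N354. *TBX3* stood at 0.107 against 1.94 and *ELAVL4* at 0.0429 against 1.06 in N350. *LNP1* and *ALDH3A1* were also near 0 on the *IGFBP5* side, at 0.0214 each, and stood at 3.47 and 1.85 on the *LAMP5* side.

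The *IGFBP5* side held most of *NPPC*, 16.8 against 0.324 UMIs per 10000 in N350 and 6.19 against 0 in N354, and of *EBF3*, 6.26 against 0.787 in N350. *CPNE4* stood at 3.49 against 0.0463 in N350 and 3.98 against 0 in N354. *NEUROD4* stood at 1.86 against 0.255, and at 5.97 against 0 in N354. *KITLG*, the ligand of the receptor KIT, stood at 1.86 against 0 in N350 and 4.2 against 0 in N354. *NRGN*, neurogranin, stood at 3.67 against 0, *CNTN6* at 0.536 against 0 and *FOS* at 39.8 against 4.26 in N350.

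Both sides held *SLC6A9* in each dog, and both sides of N350 held *SLC32A1*, which is not given by side for N354. *SLC6A9* is a marker of the rule, so its share on each side was in part set by the choice of cells. In N350 it was detected in 70 of the 160 members with *IGFBP5* and 87 of the 95 with *LAMP5*, and in N354 in 10 of 16 and 4 of 4. *SLC6A9* stood at 1.91 on the *IGFBP5* side and 6.76 on the *LAMP5* side of N350, and at 2.65 and 8.13 in N354. *SLC32A1* stood at 3 and 4.44, *PAX6* at 3.02 and 2.89, *TCF4* at 3.07 and 2.04 and *PROX1* at 2.36 and 3.77 in N350. *PENK* stood at 1.54 and 3.57. With the *IGFBP5* side alone as members, 352 genes were higher and 413 lower than in GABAergic amacrine cells, and the log2 differences of *TFAP2A*, *TFAP2B* and *CALB2* from the mean of the other classes were -2.23, -2.57 and -8.50, none of which passed (edgeR adjusted p = 0.142, 0.197 and 0.132).

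**Figure D4:**
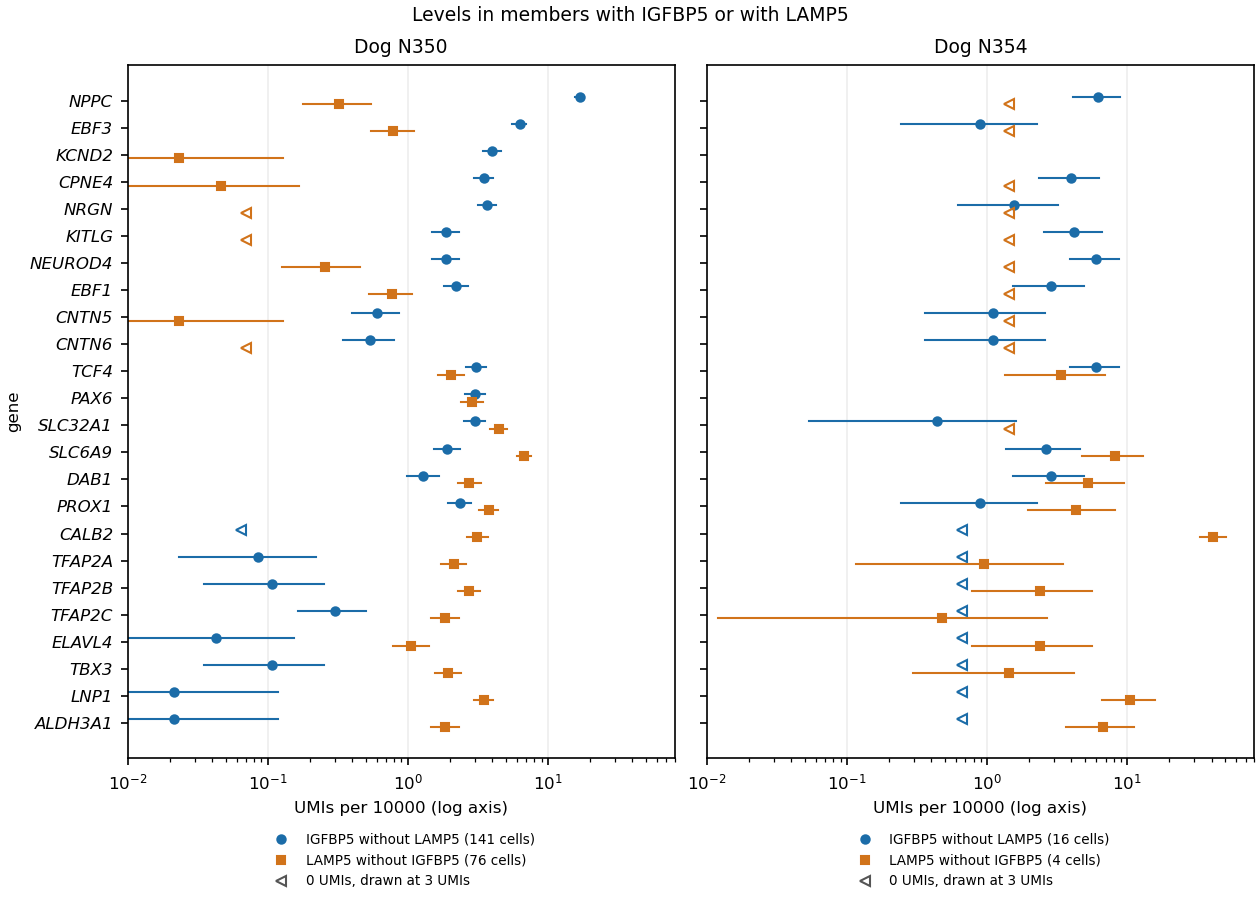
Level of named genes, in UMIs per 10000 on a log axis, in members with *IGFBP5* and without *LAMP5* (circles) and in those with *LAMP5* and without *IGFBP5* (squares), in dogs N350 and N354, with exact Poisson 95% intervals as lines and genes at 0 UMIs drawn at 3 UMIs. *CALB2* is at 0 on the *IGFBP5* side of both dogs and holds 135 and 86 UMIs on the *LAMP5* side, while *SLC6A9* and *SLC32A1* are on both sides of N350.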

How the data were processed

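Per the labels and the study's methods, cells of neuroretina punches were profiled with droplet-based 3′ chemistry. By the study's methods, reads were aligned with Cell Ranger (6.0.2 per the file headers) to canFam6. The annotations of the dogs differ, and which one each library used is not given in the sources used here. The authors deposited UMI counts of each gene in each barcode, not normalized. The study kept cells with less than 5% mitochondrial content and removed doublets. Here no such limit was used, as the rule for the members sets none. N350 has 1 name that starts with MT- and N354 has 12, while 13 mitochondrial protein genes were found in each dog. A limit of 5% on MT- names kept all 8895 barcodes of N350 but 1369 of 4387 of N354. Repeated names (17 in N354) were summed. No doublets were removed, and the 4% of barcodes with the highest Scrublet scores were left out as an alternative.

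Barcodes were assigned to 9 classes by marker gates, members first. Counts were summed by dog and class (16 sums, 7 residual degrees of freedom) and tested with edgeR 4.0.16 in R 4.3.3 (TMM, filterByExpr, quasi-likelihood test, Benjamini-Hochberg adjustment, threshold 0.05), with DESeq2 1.42.0 as an alternative. Dog was a block, because all sums of a dog come from 1 animal: deviations of the classes' sums within a dog correlated at 0.401 to 0.892 (median 0.634, 28 pairs of classes, 10081 genes). With 2 dogs, p-values measure the spread between these sums, and dog and annotation cannot be told apart. Clusters, thinning and intervals used Python 3.11.15, scanpy 1.11.5 and SciPy 1.17.1 (2000 variable genes, 30 principal components, 15 neighbours, resolution 1). Against GABAergic amacrine cells, genes of the gates of the members, Müller glia, horizontal and GABAergic amacrine cells were left out, and against the mean of the other classes those of every gate. Named genes were those of the lists and, in each comparison, the 12 highest and 8 lowest past the threshold with the same direction in both dogs, a symbol and at least 20 UMIs in the higher class. Fits were tested on simulated data. A few of the named and leading genes are not reported here. The members and gene lists were chosen with earlier results of these data known. Ganglion-like neurons (13 cells in N350 and 1 in N354) were too few to test against.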

Additional observations from a re-analysis of the deposited data

Results flagged for a closer look

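Some genes were named in the annotation of N350 only and so stood outside the tests, but had more UMIs per 10000 in the members than in all other barcodes of that dog. *PAX6*, the homeobox factor of amacrine, ganglion and horizontal cells, stood at 2.94 in the members (exact Poisson 95% interval 2.63 to 3.28), 1.38 in all other barcodes and 7.28 in GABAergic amacrine cells. *VAMP2*, a vesicle protein, stood at 23.2 against 9.1 and 28.4, and *CHGA*, a granin, at 2.5 against 1.44 and 5.64. *KCND2*, a potassium channel, stood at 1.83 against 0.0695 in all other barcodes and 0.129 in GABAergic amacrine cells, and was on the *IGFBP5* side, at 3.99 against 0.0232 on the *LAMP5* side. *CABP1*, a calcium-binding protein, stood at 3.24 against 0.563 and 2.14. *BHLHE22* stood at 0.782 against 0.328 and 0.835, *NECAB2* at 0.46 against 0.126 and 0.0596, and the housekeeping gene *PPIA* at 32.6 against 15.9 and 32.6. *RBPMS2*, a ganglion cell gene, stood at 0.267 against 0.108 and 0, and all of its 29 UMIs lay in the deepest member. The annotation of N354 does not hold these names, so no value of N354 is given, and none of these differences was tested.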

How the results depend on the processing

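The dog as a block decided the calls against GABAergic amacrine cells, where the fit with no replicate block called 0 genes higher and 0 lower and DESeq2 called 140 and 151. Against the mean of the other classes, the fit without the block called 233 and 44, and DESeq2 called 345 lower. With at least 4 markers, members made up 1.81% of barcodes in N350 and 0.16% in N354. The other settings kept the counts within 1.5 times, among them the removal of members that met the rod gate (chosen after seeing the data), with 254 and 298 genes against GABAergic amacrine cells and 1084 and 677 against the mean. The *IGFBP5* side alone, the minimum of 5 cells and a mitochondrial limit of 10% were also chosen after seeing the data. Changed signs follow, and except where a value or the setting itself shows it, the cause was not tested. Against the mean, the *IGFBP5* side alone gave *TFAP2A* -2.23, *TFAP2B* -2.57, *ELAVL4* -2.15, *CALB2* -8.50, *TBX3* -0.65, *CARTPT* -3.14 and *STMN2* -0.72. At least 4 markers with a minimum of 5 cells gave *TFAP2B* -0.64, *CARTPT* -2.66 and *STMN2* -0.65, and *THY1* -0.33 against GABAergic amacrine cells. Without members in the ganglion-like or horizontal gate, *CARTPT* was -2.77, *STMN2* -1.13, *SNCG* -0.05 and *THY1* -0.29, and without those in the rod gate *CARTPT* was -2.71, *STMN2* -1.08 and *THY1* -0.35, the deepest member being one of those left out each time. *ELAVL3* against GABAergic amacrine cells was 0.04 with no block, 0.09 on the *IGFBP5* side and 0.04 without members in the rod gate. Under a limit of 5% for MT- names, where 3 classes were left, *IER2* was -1.26 and *DUSP1* -0.84. The members of N354 alone and of N350 alone gave, against GABAergic amacrine cells, *SLC32A1* 0.26 and -0.50, *ELAVL3* -0.13 and 0.00, *CALB2* 0.16 and -0.75, *THY1* -0.09 and 0.44, *SIX3* -2.45 and 1.91 and *IER2* -1.17 and 2.49, and against the mean *C1QL2* 0.86 and -1.47, *NFIX* -0.33 and 3.61, *STMN2* -2.65 and 1.41, *SIX3* -0.63 and 2.24, *IER2* -0.82 and 1.29 and *DUSP1* -0.59 and 1.12, since 1 dog leaves no test. The 20 genes named in each comparison by the size of their difference had to lie on the same side in both dogs. None changed sign in the fits where it was tested, which held 13 to 20 of them. With no block, 20 of 20 were weaker than in the main fit against GABAergic amacrine cells and 7 of 20 against the mean. DESeq2 gave 8 of 20 weaker in each comparison, and the *IGFBP5* side alone 3 of 18 and 8 of 20. The other settings gave at most 3 in either comparison. Not run were any test against ganglion-like neurons, the limit of 5% for MT- names against GABAergic amacrine cells (3 such cells left in one dog) and that limit or 4 markers at a minimum of 10 cells. The 21 members of N354 limit what can be detected there.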

Other observations

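*SPATA7* and *PTPN21* are the genes that the study set out to place in the retina. *SPATA7* stood at 0.607 UMIs per 10000 in the members of N350 and 0.436 in those of N354. Its log2 difference from GABAergic amacrine cells was 0.39 and did not pass (edgeR adjusted p = 0.708), and from the mean of the other classes it was -0.01 (adjusted p = 1). *PTPN21* stood at 0.313 in the members of N350 and at 0 UMIs in those of N354.

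The ganglion-like neurons of N350, 13 cells, stood above the members in genes of ganglion cell axons, as values with no test. *NEFL*, *NEFM* and *SNCG* were among the gate genes left out of the tests against the mean. Their higher level in gated cells was therefore set by the choice of cells. *NEFL* stood at 77.6 UMIs per 10000 against 4.65 in the members, *NEFM* at 33.9 against 5.12, *SNCG* at 15.5 against 1.87 and *STMN2* at 38.5 against 4.53. Without the deepest member, which held 407 of the 492 UMIs of *STMN2*, the members stood at 1.09, 0.443, 0.00985 and 0.837 for *NEFL*, *NEFM*, *SNCG* and *STMN2*. Of the 13 ganglion-like cells, 1 held 84372 of their 175965 UMIs. *THY1*, also a ganglion cell gene, was higher in the members than in the mean of the 7 other classes, which did not include ganglion-like neurons (log2 3.17, SE 0.36, edgeR adjusted p = 1.97e-06). It stood at 2.29 and 1.31 in the members and 1.6 and 1.18 in GABAergic amacrine cells. Without the deepest member of N350, which held 90 of 249 UMIs of *THY1*, the members of that dog stood at 1.57.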
